A study of Drosophila melanogaster with 12 samples.

Results

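The neuropeptide genes of the fly head described here were chosen by name, as the probe sets annotated to the precursor genes Pdf, Dh44, Dh31, Mip, Capa, Nplp2, Nplp3, sNPF and AstA and to Pdfr, which encodes the receptor of the Pdf peptide. Of these 10 genes, 9 were measured, each by 1 of the 13966 probe sets tested; AstA was not analysed here. The probe sets were 143977_at for Pdf, 144406_at for Pdfr, 149572_at for Dh44, 146038_at for Dh31, 148943_at for Mip, 153068_at for Capa, 151287_at for Nplp2, 148877_at for Nplp3 and 146529_at for sNPF.

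Whole heads of cn bw adults, which carry the eye colour mutations cinnabar and brown, were sampled at 4-hour intervals on 12 Affymetrix arrays. A day with 12 hours of light (LD, ZT4 to ZT24 in hours after lights on) gave 6 arrays, and the following day in constant darkness (DD, CT4 to CT24, in hours after the time at which lights would have come on) gave the other 6. All flies shared this genotype and had been entrained to the light cycle before; their age and sex are not given in the sources used here. An array held RNA of about 100 to 200 pooled heads and no time point had a replicate, so p-values rest on how far arrays lie from fitted curves, and whether time points were collected independently is not stated.

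Neuropeptides are cut from longer precursor proteins in the secretory pathway, stored in dense-core vesicles and released to act on G protein-coupled receptors. Each precursor gene is usually active in a small and fixed set of neurons, and several also act in endocrine cells of the gut. In the fly brain, PDF is the best known output and synchronising signal of the clock neurons, and DH44, DH31, sNPF and MIP act in circuits for rest, activity and feeding downstream of or beside the clock. The abundance of PDF peptide at nerve terminals is known to vary through the day. The time course and the change to darkness bear on whether the transcripts of these genes vary as well.

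The arrays carried head RNA: the photoreceptor arrestin genes Arr1 and Arr2 had mean values of 10.47 and 11.04 (log2), above 99.4% and 99.7% of all probe sets, and the neuronal genes Gad1, for the enzyme that makes GABA, and nSyb, for a synaptic vesicle protein, 7.20 and 6.75. These are among the stronger marker genes, and others were weak, such as the photoreceptor marker Galphaq at 3.48 and the neuron marker para at 3.79. In 4 arrays measurements stood apart. In ZT16, ZT24 and CT4, the signal from the 3' end of 3 control genes exceeded that from their 5' end by 2.58 to 3.32 (log2), against 1.49 to 2.13 in the other 9 arrays; this 3' excess reflects the length of the RNA or of its labelled copies. In CT8 the neuron marker list was low and the gut marker list high, as given below.

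The signals of the 9 genes covered nearly the whole range of the arrays. A signal on the log2 scale depends on the probes as well as on the transcript, so its place among all probe sets is given as a description and orders no 2 genes. Nplp3 and Nplp2, precursors named for peptides found by mass spectrometry in the nervous system, had means of 12.74 and 12.17 and were above 99.98% and 99.94% of probe sets, near the top of the scale. Which cells of the head gave these strong signals, neurons or others, was not tested. Pdf had a mean of 6.83 (percentile 88.9), Dh31 5.99 (75.9), Capa 5.71 (70.0), and sNPF 5.22 (58.8). Pdfr, at 4.82 (percentile 49.3), and Mip, at 4.64 (45.0), lay below the median of all probe sets, which was 4.85, and Dh44, at 3.42 (19.4), was the weakest. Changes of the 3 last genes can be understated, since background takes part in weak signals. In whole heads, fewer cells of a type and less RNA per cell cannot be told apart.

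The clock neuron peptide gene Pdf had the narrowest range of the 9. It measured 6.75, 6.86, 6.82, 6.72, 6.84 and 6.93 from ZT4 to ZT24 and 6.90, 7.08, 6.85, 6.68, 6.74 and 6.74 from CT4 to CT24 (log2). The days overlapped, and the highest value was that of CT8. Highest and lowest array differed by 0.40 on the log2 scale, a 1.32-fold ratio, and 28.0% of probe sets had a range no larger. The fitted daily curve over both days had an amplitude, the fitted peak minus the fitted mean, of 0.09 ± 0.05 (SE, n = 12) with a peak at 6.4 ± 2.1 hours (limma adjusted p = 1.0). In the LD day alone the amplitude was 0.04 ± 0.06, and in DD 0.17 ± 0.06 with a peak at 7.3 hours (unadjusted p = 0.0724 by limma, n = 12). Without CT8 the amplitude in DD was 0.12.

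Pdfr, the receptor gene through which clock neurons and others respond to PDF, ranged from 4.59 in ZT24 to 5.07 in CT8, with 5.05 in CT16 and 5.01 in CT20. Its fitted amplitude was 0.09 ± 0.06 with a peak at 16.9 ± 2.4 hours (adjusted p = 1.0). The fitted peaks of the receptor gene and of Pdf thus differed in hour, but neither curve passed, so no order of the peaks was established.

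The sNPF gene encodes short neuropeptide F, which promotes feeding and is made in many neurons, the mushroom body and some clock neurons among them. It measured 5.25, 5.20, 5.14, 4.75, 5.38 and 4.75 from ZT4 to ZT24. From CT4 to CT24 it measured 5.04, 4.93, 5.51, 5.48, 5.59 and 5.64. The 4 values from CT12 onwards were above all 8 others. The lowest values were those of ZT24 and ZT16, both with a large 3' excess. With the largest standard deviation of the 9 genes over the 12 arrays (0.31, percentile 87.3 of all probe sets), sNPF had a fitted amplitude over both days of only 0.12 ± 0.11, and 0.33 ± 0.14 at 19.0 hours in DD (unadjusted p = 0.1192 by limma, n = 12).

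Dh31 encodes a calcitonin-like diuretic hormone that promotes waking before dawn and is also made in gut endocrine cells. Its values were 6.16, 6.06, 5.82, 5.64, 6.01 and 6.03 in the LD day and 6.01, 5.46, 6.24, 6.08, 6.10 and 6.32 in DD. Apart from CT8 and ZT16, which were the lowest, the values stayed between 5.82 and 6.32. The fitted amplitude over both days was 0.14 ± 0.09 (adjusted p = 1.0). In DD it was 0.24 ± 0.12 with all arrays and 0.01 without CT8, so the curve of that day rested on 1 array.

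Dh44 encodes a hormone related to corticotropin-releasing factor, made in neurosecretory cells of the dorsal brain that carry clock output to rest and activity. It measured 3.56, 3.28, 3.36, 3.01, 3.37 and 3.11 in the LD day and 3.44, 3.58, 3.61, 3.67, 3.55 and 3.46 in DD. All values of the dark day were above 5 of the 6 of the LD day, and ZT4 overlapped them. Mip encodes myoinhibiting peptides, ligands of the sex peptide receptor that act in sleep. It measured 4.58, 4.54, 4.64, 4.29, 4.64 and 4.52, and then 4.71, 4.60, 4.66, 4.82, 4.91 and 4.76. Here, too, ZT16 was the lowest array. Fitted amplitudes were 0.05 ± 0.07 for Dh44 and 0.06 ± 0.05 for Mip, the smallest of the 9.

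Capa is the precursor gene of a pyrokinin and of CAPA peptides. The CAPA peptides act on the fly's kidney tubules and are made mostly in neurons of the abdominal ganglia. Capa ranged from 5.47 in ZT24 to 5.94 in CT16. Both days spread over this range alike, with 5.68 ± 0.14 (SD, n = 6) in the LD day and 5.74 ± 0.14 in DD. Its fitted amplitude was 0.10 ± 0.05 with a peak at 10.7 ± 2.0 hours (adjusted p = 1.0).

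Nplp2 measured 12.22, 12.37, 12.15, 12.12, 11.59 and 12.53 in the LD day and 12.46, 11.65, 12.42, 12.12, 12.21 and 12.25 in DD. ZT20 and CT8 stood below all other arrays, by about the same amount, and the other 10 lay between 12.12 and 12.53. These low arrays fell at different hours in the 2 days, and the fitted amplitude was 0.11 ± 0.12 (adjusted p = 1.0). It was 0.22 without CT8 and 0.34 ± 0.06 without ZT16, ZT24, CT4 and CT8 (adjusted p = 0.2231 in limma). Nplp3 measured 12.78, 12.88, 12.50, 12.87, 12.83 and 12.95, and then 12.86, 12.45, 12.57, 12.43, 12.97 and 12.82. In each day the values at hours 20 and 24 were above 12.8, and the value at hour 12 was below 12.6. At hours 8 and 16 Nplp3 differed between the days, by -0.43 and -0.44 (DD minus LD), and its lowest arrays were CT16 and CT8. Its amplitude was 0.19 ± 0.06 with a peak at 23.6 ± 1.3 hours, a 1.29-fold ratio of peak to trough.

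**Figure D1:**
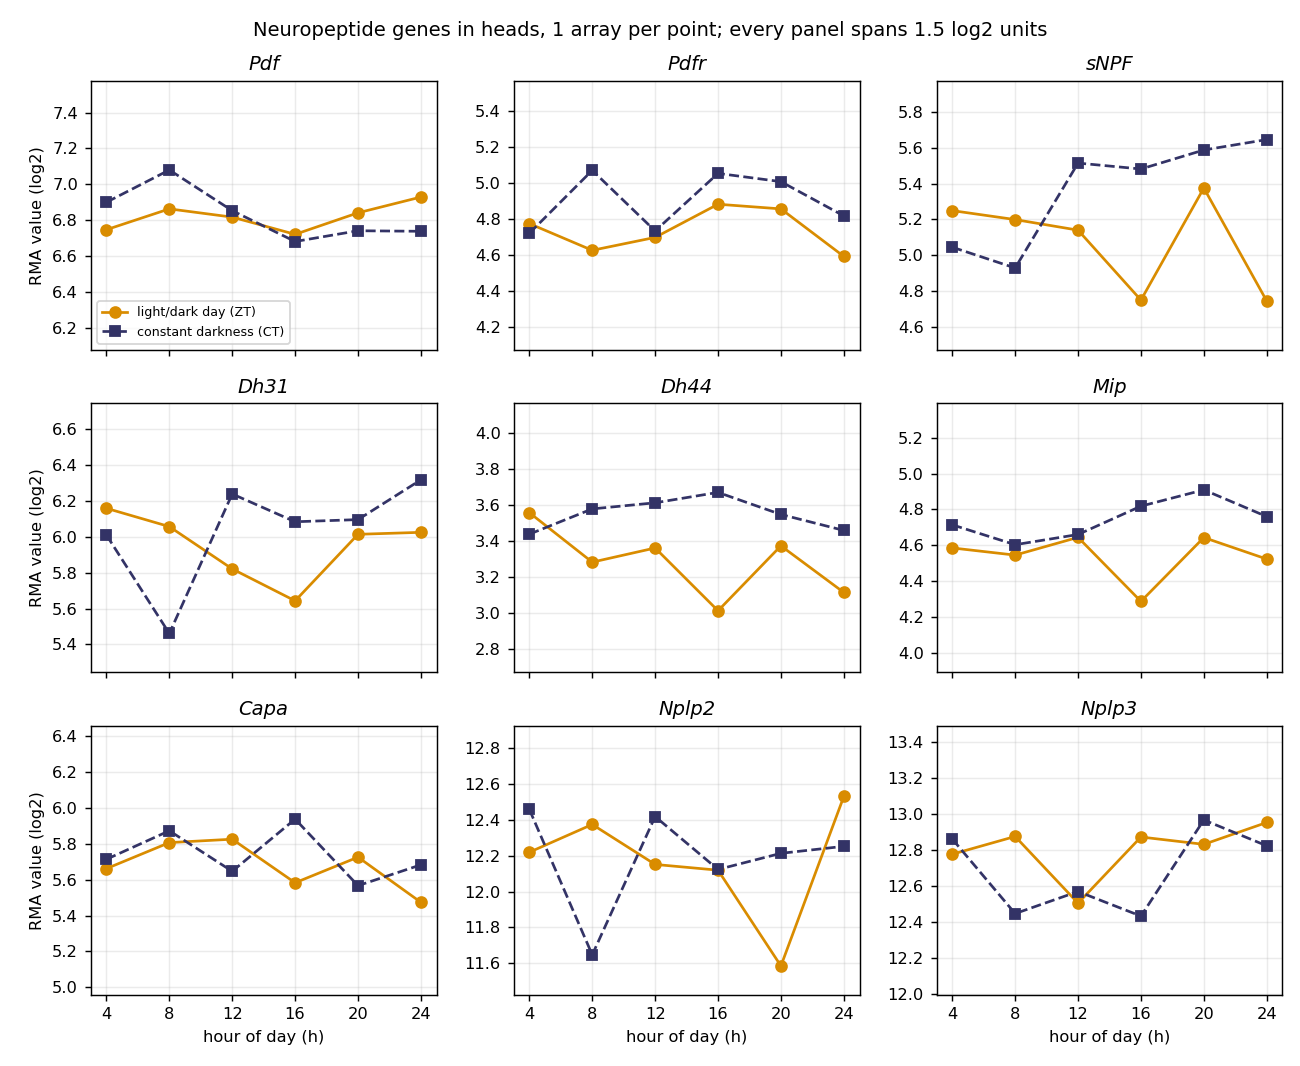
RMA value (log2) of each of the 9 genes against the hour of day, with circles for the LD day and squares for DD, 1 array per point and 1.5 log2 units in every panel. Pdf stays within 0.40, while Dh31, Nplp2 and sNPF span 0.86 to 0.94, with Dh31 and Nplp2 low in CT8 and sNPF low in ZT16 and ZT24.

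Over both days none of the 9 genes passed the test for a daily rhythm in limma, adjusted over all probe sets at 0.05, against 0.00716% of all probe sets. Of 8 core clock genes 1 passed, vri (amplitude 0.71 ± 0.07, adjusted p = 0.0403 in limma). The clock gene tim, with an amplitude of 0.81 ± 0.14, did not, so a gene that did not pass may still cycle. With an unadjusted p under 0.05 there was 1 of the 9 genes, Nplp3 (unadjusted p = 0.0344 by limma, n = 12; adjusted p = 1.0), where 1.65% of all probe sets had one. Nplp3 lies near the top of the scale, and with quantile normalization repeated its amplitude was 0.07. The median amplitude of the 9 genes was 0.10, against 0.07 over all probe sets. Within the LD day none passed (adjusted p = 0.9939 for each), nor in DD (adjusted p = 0.9998 for each), and these tests called 0% of all probe sets. Unadjusted, none of the 9 lay under 0.05 in either day, where 3.42% of all probe sets did in the LD day and 1.73% in DD. The largest amplitude within the LD day was 0.26 ± 0.17 for Nplp2, and within DD 0.33 for sNPF, given above. That of Nplp2 was 0.14 without ZT20, where the largest in the LD day was that of sNPF at 0.35.

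The shape of the daily curve was not shown to differ between the days for any of the 9 genes, while 0.00716% of all probe sets passed that test. The size of the difference, the length of the vector between the 2 fitted curves, was largest for sNPF at 0.42 ± 0.20 (SE) and for Dh31 at 0.37 ± 0.17, both with adjusted p = 0.9861 in limma. None of the 9 had an unadjusted p under 0.05 for it, against 2.62% of all probe sets.

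Mean levels were higher in DD for 8 of the 9 genes and lower for Nplp3, with a median difference of 0.08 on the log2 scale, against -0.01 over all probe sets. Of all 13966 probe sets, 6214 were higher in DD. None of the 9 genes passed in limma (adjusted p = 0.9298 to 0.9926), and 0% of all probe sets did. The 2 genes with an unadjusted p under 0.05, both higher in DD, were Dh44 and Mip, where 1.57% of all probe sets were higher with such a p. Dh44 measured 3.28 ± 0.20 (SD, n = 6) in the LD day and 3.55 ± 0.09 in DD. The fitted difference was 0.27 ± 0.09 (SE), with a 95% interval from 0.06 to 0.47, and it was higher at 5 of 6 matched hours. Mip measured 4.54 ± 0.13 and 4.74 ± 0.11, a difference of 0.21 ± 0.08 with an interval from 0.04 to 0.38, and was higher at 6 of 6 matched hours, by 0.02 at hour 12 and by 0.53 at hour 16. At all 6 hours 0.888% of probe sets were higher in DD and 1.61% lower; of the 9 genes, Mip alone was higher at all of them and none was lower. At 5 or 6 hours 3 of the 9 were higher (Mip, Dh44 and Pdfr), and 8.81% of all probe sets. Without ZT16, ZT24, CT4 and CT8, the difference was 0.18 for Dh44 (interval -0.05 to 0.41) and 0.13 for Mip (-0.05 to 0.30), and neither had an unadjusted p under 0.05.

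The largest difference in mean level was that of sNPF, with 5.08 ± 0.27 (SD, n = 6) in the LD day and 5.37 ± 0.30 in DD. The fitted difference was 0.29 ± 0.15 (SE), a 1.22-fold ratio, with an interval from -0.05 to 0.63. It was higher at 4 of 6 matched hours, and lower at hours 4 and 8 (by -0.20 and -0.27). Without ZT16, ZT24, CT4 and CT8 the difference was 0.29 with an interval from 0.12 to 0.46 (adjusted p = 0.2875 in limma), where 13 of all probe sets passed. The size moved with single arrays, to 0.19 without ZT16 and 0.20 without ZT24, the lowest arrays of the LD day, and to 0.37 without CT8. The 8 arrays left without all 4 hold hours 4, 8, 12 and 20 of the first day and hours 12, 16, 20 and 24 of the second, so that comparison is of different hours too.

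For Pdf the difference between the days was 0.01 ± 0.07, with an interval from -0.14 to 0.16, so a change of the mean beyond 1.12-fold in either direction lay outside the interval. Pdfr differed by 0.16 ± 0.08 (interval -0.02 to 0.34), Dh31 by 0.08 ± 0.13 (-0.21 to 0.37) and Capa by 0.06 ± 0.08 (-0.11 to 0.23). Nplp2 differed by 0.02 ± 0.17 (-0.35 to 0.39), and Nplp3 by -0.12 ± 0.09 (-0.31 to 0.07). Without the 4 arrays named above, the difference was 0.39 for Nplp2 (interval 0.19 to 0.60; adjusted p = 0.2024 in limma) and 0.24 for Dh31 (0.05 to 0.43), neither of them past the threshold. Since DD always followed LD, the effects of lighting, of time since the start and of batch cannot be told apart for any of these differences.

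**Figure D2:**
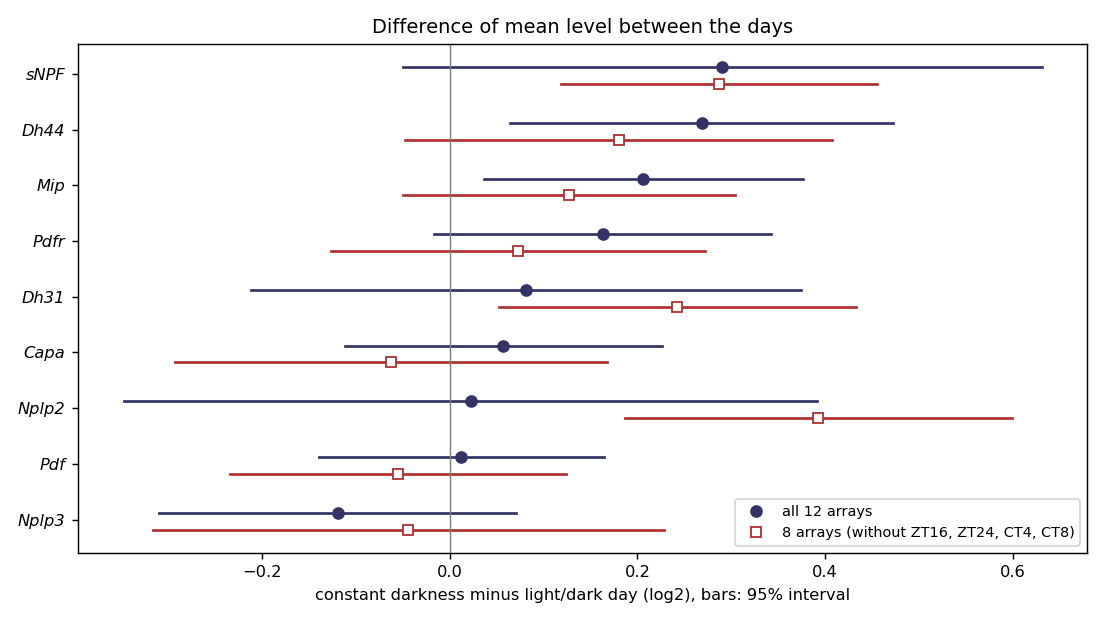
Difference of mean level, DD minus the LD day (log2), for each of the 9 genes, with 95% intervals, for all 12 arrays (circles) and for the 8 arrays without ZT16, ZT24, CT4 and CT8 (squares). The point of sNPF is 0.29 in both, while that of Nplp2 goes from 0.02 to 0.39.

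Neuronal genes were low in the array CT8, and the peptide genes did not follow them as a group. Of the 16 neuron markers measured, 8 had their lowest value in CT8, and the median of CT8 minus the median of the other 11 arrays was -0.69 on the log2 scale. The list's median deviation from each gene's mean was -0.52 in CT8 and between -0.08 and 0.23 in the other arrays. The vesicle gene Syn was at 2.59 in CT8, against 3.68 to 4.92 in the other arrays, and the neuronal RNA-binding protein gene elav at 3.70, against 4.45 to 5.94. Of the 9 peptide genes, 1 had its lowest value in CT8 and 2 their highest. Over all probe sets, 14.1% had their lowest and 14.9% their highest value there.

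The gene lowest in CT8 was Dh31, at 5.46, against 5.64 to 6.32 in the other 11 arrays, 0.60 below their median. Nplp2 in CT8 was 0.57 below the median of the others (11.65 against 12.22) and second lowest after ZT20. Nplp3 was 0.39 below, at 12.45 against 12.83, and second lowest after CT16. With sNPF in CT8 at 4.93 against a median of 5.25, the third lowest value, 4 of the 9 genes stood at least 0.3 below. Such differences lay at percentiles 3.9 for Dh31, 4.2 for Nplp2, 7.9 for Nplp3 and 10.4 for sNPF among all probe sets.

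The genes highest in CT8 were Pdf, at 7.08 against 6.68 to 6.93 in the other arrays, and Pdfr, at 5.07 against 4.59 to 5.05. Capa was second highest, at 5.87 with a median of 5.68 in the others. Dh44 differed from the median of the others by 0.14 and Mip by -0.04. The neuron markers did not all stand low either. In CT8 the calcium channel gene cac was 0.37 and the sodium channel gene para 0.26 above the median of the other arrays. This was the same side as Pdf and Pdfr, and the active zone gene brp differed by -0.01. The values of cac and brp are of their strongest probe sets. A weaker one of cac, with a mean of 2.91, differed by -0.52, and weaker ones of brp by -0.32 and 0.09. Glia markers were low in CT8 as well (median -0.29 over 8 genes), photoreceptor markers less so (-0.09 over 11 genes), and 12 of 16 gut markers had their highest value there (median 0.73). The gut list's median deviation was 0.65 in CT8 and between -0.17 and 0.09 elsewhere. DH31 and MIP are known from gut endocrine cells too, and in this array Dh31 was low and Mip near its median; the part of gut or neuronal RNA in the values of CT8 was not tested.

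**Figure D3:**
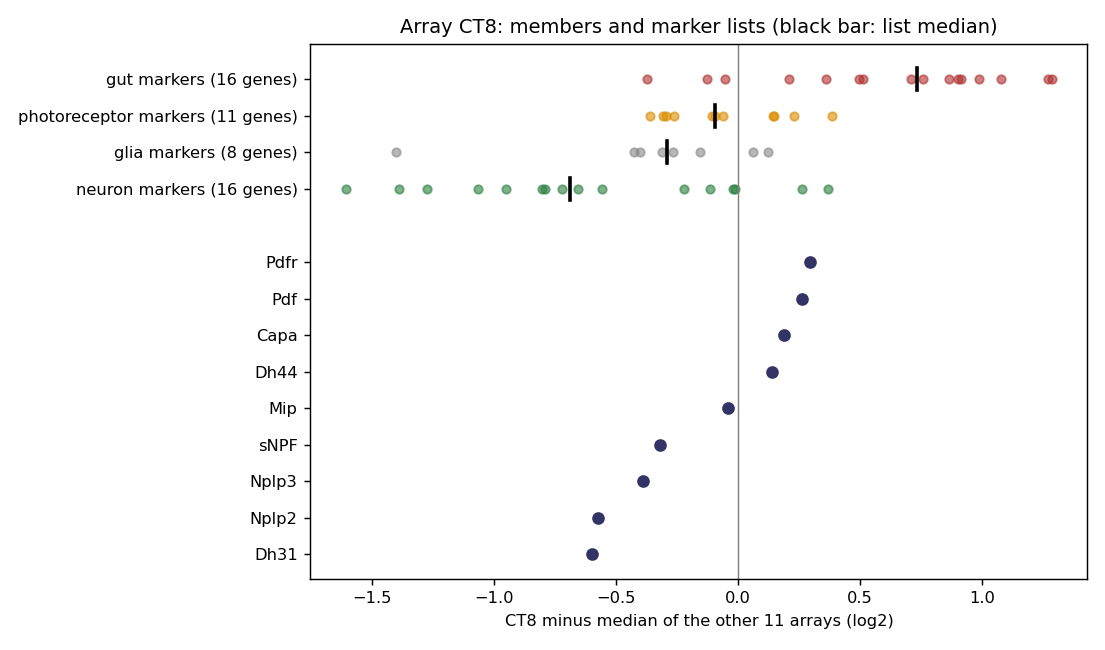
Value of array CT8 minus the median of the other 11 arrays (log2) for each of the 9 peptide genes and, in the upper rows, for each gene of 4 marker lists, with a black bar at the list median. Neuron markers centre on -0.69 and gut markers on 0.73, while the peptide genes run from -0.60 for Dh31 to 0.30 for Pdfr.

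In the 3 arrays with a large 3' excess, ZT16, ZT24 and CT4, 6 of the 9 genes had a lower mean than in the other 9 arrays, sNPF and Dh31, both low in CT8, among them. Of all 13966 probe sets, 5839 were lower in these 3 arrays, and Dh31 differed by only -0.135 (percentile 21.3). There sNPF had a mean of 4.85 against 5.35 in the other 9 arrays, a difference of -0.50 (percentile 5.1 of all probe sets), and Dh44 3.19 against 3.49 (-0.31, percentile 10.5). Nplp2 and Nplp3 were on the other side, by 0.26 and 0.20, and Pdf differed by 0.03. Over all probe sets the median was 0.04. Across the 12 arrays, Pearson's r with the 3' excess was -0.75 for sNPF (Spearman's rho -0.73) and -0.58 for Dh44 (-0.38), and 0.26 for Pdf (0.15), as a description of 12 arrays that also differ in other genes. The medians of the photoreceptor and head fat body markers in the 3 arrays differed from the other 9 by -0.46 and -0.51, and that of the neuron markers by 0.28. In the model with the 3' excess as a covariate, the day difference of sNPF was 0.21 and that of Dh44 0.23, and neither passed (adjusted p = 0.9823 for both).

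The gene 7B2, which encodes a chaperone of the precursor-cutting enzyme PC2, differed further between the same arrays. Its stronger probe set had a mean of 6.64 in the 3 arrays against 8.13 in the other 9 (-1.48). Its weaker probe set went the other way, with 7.51 in the 3 arrays, a difference of 0.51. The 2 probe sets of 1 gene disagreed in the sign of the day difference as well, at 0.57 and -0.14.

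**Figure D4:**
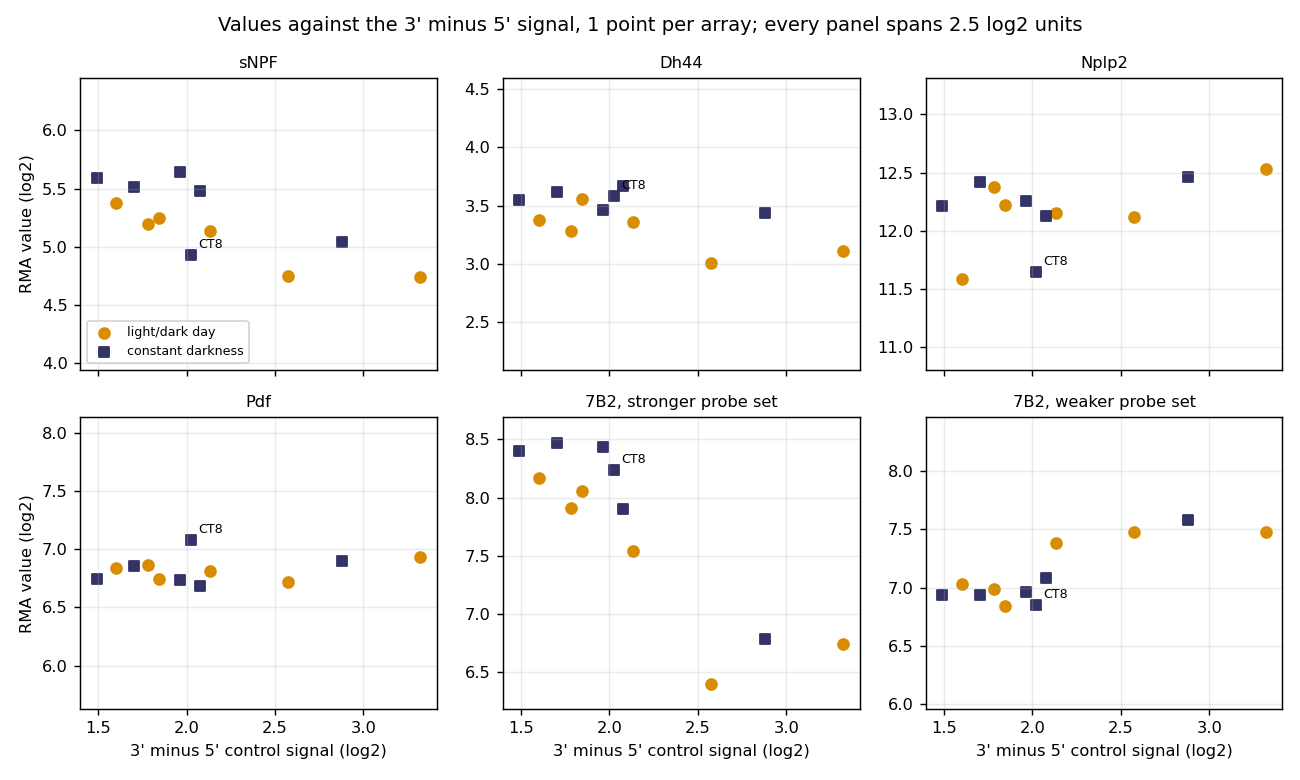
RMA value (log2) against the 3' excess (3' minus 5', log2) for sNPF, Dh44, Nplp2, Pdf and both probe sets of 7B2, 1 point per array, circles for the LD day and squares for DD, 2.5 log2 units in every panel. The 3 arrays at 2.58 and above hold low values of sNPF and of the stronger 7B2 probe set and high values of the weaker one, while Pdf stays level.

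Among the 36 pairs of the 9 genes, 18 correlated above 0 over the 12 arrays. The closest were Mip with sNPF (Pearson's r 0.78, Spearman's rho 0.76), Dh44 with Mip (0.76 and 0.64) and Dh31 with sNPF (0.71 and 0.80), and the most opposed Capa with Nplp3 (-0.76 and -0.71). Pdf correlated with sNPF at -0.49 and with Dh31 at -0.49; without CT8 the latter was 0.01. Pdf and its receptor gene Pdfr correlated at -0.14 over the 12 arrays and at -0.82 over the 11 without CT8, where both were highest. These are descriptions of 12 arrays that share the differences in 3' excess and, in CT8, in neuron and gut markers.

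For the 6 genes with a mean above the median of all probe sets, the genes most like them over the 12 arrays, by Pearson's r, were a mixed set. For Pdf they were the cuticle protein gene Acp65Aa (r 0.86, and 0.71 without CT8), the sex peptide gene SP (0.82 and 0.67) and CG12909 (0.82 and 0.73). For Dh31 they were the sex determination gene Sxl (0.94), lncRNA:CR42862 (0.93) and the phospholipase C gene Plc21C (0.92). sNPF was most like CG11147 (0.96), CG5758 (0.95) and CG8468 (0.95), and Nplp2 most like the immune-induced gene IM33 (0.96), Tdg (0.95) and the respiratory chain gene UQCR-6.4 (0.95). For Capa they were CG15126 (0.88), CG15464 (0.86) and CG6985 (0.86), and for Nplp3 papi (0.84), CG9706 (0.83) and CG9143 (0.83). These genes were picked as the highest r among all other genes over 12 arrays, so a high r was given beforehand. The values are a description, and some of the genes had weak signals, such as CG9143 (mean 2.75) and CG12909 (3.06).

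The 5 measured genes for receptors of DH44, DH31, MIP and sNPF are given by their strongest probe sets. None passed any test, 2 were higher and 3 lower in DD, and the median difference was -0.05. The weaker probe sets of Dh31-R (0.05), Dh44-R2 (0.07), SPR (-0.04) and sNPF-R (-0.05) had the opposite sign. The split thus depends on the probe set chosen. The sNPF receptor gene sNPF-R had a mean of 5.84 and differed by 0.05 ± 0.10 (SE) between the days, where sNPF itself differed by 0.29. SPR, the receptor gene for MIP and sex peptide, had a mean of 5.73 and differed by 0.09 ± 0.10. Dh31-R and Dh44-R2 differed by -0.07 ± 0.05 and -0.07 ± 0.07, and their amplitudes were 0.05 and 0.09.

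Among 24 other peptide precursor genes none passed, 14 were higher and 10 lower in DD, and the median difference was 0.01. Those with the highest signal were Nplp4 (mean 10.27) and the myosuppressin gene Ms (7.17). Ms, whose peptide slows gut and heart muscle, was at 6.47 in CT8, below all other arrays (6.93 to 7.80), and had an amplitude of 0.20 ± 0.13. Of the 24 genes, 2 were lowest in CT8 and 1 highest, against 14.1% and 14.9% of all probe sets. The list's median of CT8 minus the median of the other arrays was -0.014. The smallest p for the day difference was that of the leucokinin gene Lk (-0.09 ± 0.06), and the amplitude of Trissin was 0.12 ± 0.07.

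Of 19 other peptide receptor genes, 16 were lower and 3 higher in DD, with a median of -0.08 and none past the threshold. Of all 13966 probe sets, 7752 were lower in DD, and 15 of the 19 receptor genes were higher in the 3 arrays with a large 3' excess, of which 2 are LD arrays; the part of this in the day difference was not tested. The strongest probe set of TrissinR measured 8.05 ± 0.18 (SD, n = 6) in the LD day and 7.73 ± 0.30 in DD. The difference was -0.32 ± 0.14 (SE, adjusted p = 0.9298 in limma). That probe set was higher by 0.50 in the 3 arrays with a large 3' excess. The other probe sets of TrissinR differed between the days by -0.29, -0.06 and -0.04. The tachykinin receptor gene TkR99D, at a mean of 7.32, differed by -0.12 ± 0.08, CCHa2-R by -0.14 ± 0.07 and CCKLR-17D3 by -0.07 ± 0.06. The insulin receptor gene InR had an amplitude of 0.10 ± 0.05.

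The 12 measured genes for peptide processing and secretion split evenly, 6 higher and 6 lower in DD, and none passed. Phm, which encodes the enzyme that begins the amidation of peptides, measured 7.55 ± 0.40 (SD, n = 6) in the LD day and 7.89 ± 0.38 in DD, a difference of 0.33 ± 0.21 (SE). Like sNPF and the stronger probe set of 7B2, Phm was low in the 3 arrays with a large 3' excess (a difference of -0.58). The list as a whole was not: 6 genes were lower and 6 higher there, with amon (0.66) and IA-2 (0.68) among the higher. The transcription factor gene crc had the highest signal of this list, at 9.57, with an amplitude of 0.17 ± 0.11, and the furin protease gene Fur2 an amplitude of 0.19 ± 0.11 with its lowest value in CT8 (3.71, against 4.03 to 4.88). Of the 12 genes, 3 were lowest in CT8 and 1 highest, against 14.1% and 14.9% of all probe sets.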

How the data were processed

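The authors deposited log2 values, 1 per probe set and array. The submitters' processing notes name RMA without a version; the log base was inferred from the range of 1.72 to 13.52. RMA corrects background, normalizes arrays and summarises probes, and it compresses changes of weak transcripts. Array medians lay between 4.81 and 4.88. Of 14010 probe sets, 44 controls were set aside and 13966 tested. Names came from the supplied platform annotation, updated through RefSeq gene identifiers (Release 6 plus ISO1 MT): 12442 probe sets had 1 gene, 327 several and 1197 none here. A gene with several probe sets was represented by the one with the highest mean. Arrays give no read depth; their number limits the precision, and the median standard error of a day difference was 0.09.

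Tests used limma 3.58.1 in R 4.3.3, tested on simulated data, with Benjamini-Hochberg adjustment over all probe sets. A 24-hour cosine and sine with a step between days gave the rhythm and the day difference; separate curves per day gave the rhythm within each day and its difference. The array CT8 was described, not tested. Members, gene lists and alternatives were chosen with earlier results of these data known. Named besides the members were, per list, the 2 genes with the highest level and the 2 with the smallest p for rhythm and for day difference, up to 3 marker genes beside a result, and the 3 genes most correlated with each member above the median level; both probe sets of 7B2, and the CT8 values of Ms and Fur2, were singled out after their values were seen. The clock genes vri and tim were named for comparison, also after their values were seen. No sequences are given.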

Additional observations from a re-analysis of the deposited data

Results flagged for a closer look

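Among the 9 peptide genes, the 6 arrays of each day were screened for a value far from the rest, 18 groups in all, and 2 had one; chance gives about 1 in 20. Dh31 in CT8, at 5.461, lay 0.55 below the next lowest array of DD, and the others spanned 6.01 to 6.32. Mip in ZT16, at 4.287, lay 0.24 below the next lowest array of the LD day, and the others spanned 4.52 to 4.64. Neuron markers were low in CT8 and the 3' excess was large in ZT16; the part of either in these values was not tested.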

How the results depend on the processing

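The count of called members was 0 in each of the 5 tests under every alternative run: each array left out, quantile normalization repeated, 16 added on the linear scale, only probe sets above the median level (which leaves 6 members), an intensity trend with robust variance, the 3' excess as a covariate, ZT16, ZT24, CT4 and CT8 left out together, and, for the day difference, the hour as a block. A further alternative, without CT8 and with the covariate, was chosen after seeing the data and called 0 in the day difference, the one test counted for it. Under these alternatives a test called at most 13 of all probe sets, in the day difference without ZT16, ZT24, CT4 and CT8. With so few calls, a count of 0 members was nearly given beforehand and says little about these genes. The day difference turned its sign, always below the threshold, in 4 genes. For Pdf it was -0.025 with quantile normalization repeated, -0.055 without the 4 arrays and -0.021 without CT8 and with the covariate, and it ran from -0.029 to 0.042 with 1 array left out. For Capa it was -0.063 without the 4 arrays. For Nplp2 it was -0.083 with quantile normalization repeated and ran from -0.108 (without ZT20) to 0.171 (without CT8) with 1 array left out. For Dh31 it ran from -0.0029 (without CT12) to 0.204 (without CT8). Dh44, Mip, Pdfr, sNPF and Nplp3 kept the sign of the day difference in all alternatives run. With quantile normalization repeated, 2 members were lowest in CT8 in place of 1, Nplp2 (11.45, against 11.64 to 12.56) beside Dh31. The cause of these shifts was not tested.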
